A study of Danio rerio with 4 samples.

Results

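The cells described here are blood cells caught while dividing. They were selected on their UMI counts alone, in single-cell transcriptomes of zebrafish embryos. A cell belonged to them when it held a UMI (unique molecular identifier, a tag that marks a single captured transcript) for at least 6 of 9 cell cycle genes (mki67, top2a, cdk1, ccnb1, aurkb, cdca8, birc5a, tpx2 and plk1), at least 1 UMI of coro1a (ENSDARG00000054610), a coronin of leukocytes, and UMIs for at most 2 of 8 endothelial genes (cdh5, tie1, pecam1, egfl7, sox18, she, clec14a and ecscr). The rule found 218 cells, the members, among 7677 called cells, of which 5191 passed the quality limits (over 200 genes, below 4500 genes, and a mitochondrial share below 5%). They lie within 1772 blood cells, that is, cells that met the coro1a and endothelial criteria. The 1333 blood cells with at most 1 of the 9 cell cycle genes are called non-dividing below, and the 221 blood cells with 2 to 5 of them were left out of that comparison.

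The flt1mut libraries came from embryos labelled flt1ka604; Tg(kdrl:EGFP)zf531Tg, and the WT libraries from embryos labelled Tg(kdrl:EGFP)zf531Tg, all at 3 dpf, with 2 libraries per genotype. Every library, WT included, therefore carries the kdrl:EGFP transgene, in which the promoter of the Vegf receptor gene kdrl drives EGFP, and every cell passed a sort for live GFP+ cells, so the blood cells here are those that passed an endothelial reporter gate and not a sample of all blood. Per the study's methods the flt1 allele removes soluble and membrane-bound Flt1, a decoy for Vegf, and each library pools many embryos. Nothing states whether the libraries of a genotype came from separate clutches, so p-values measure only the spread between these libraries, which may be technical.

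A dividing cell first licenses its replication origins by loading the Mcm helicase, then copies its DNA in S phase with the help of the sliding clamp Pcna and a supply of deoxynucleotides, and in G2 and mitosis makes the cyclins, kinases, condensins and motor proteins that condense and separate chromosomes. In the zebrafish embryo blood stem and progenitor cells bud from the endothelium of the dorsal aorta and seed the caudal hematopoietic tissue and the thymus, where T cell precursors multiply. Primitive erythrocytes circulate already and are rich in embryonic globin transcripts.

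The 4 libraries held 16828951 to 33837917 UMIs in all called cells. The dividing cells had a median of 27010.5 UMIs (5450 to 52346) and 3661.5 genes, against 19920 UMIs and 2905 genes in non-dividing blood cells, and their summed counts came to 2628522 and 941392 UMIs in the flt1mut libraries, against 1228866 and 1259054 UMIs in the WT libraries. Over all pairs of libraries 8 cell barcodes were shared, and 0 of them belonged to a dividing blood cell. Transcripts of flt1 itself were almost absent from the dividing blood cells (1 and 0 UMIs in flt1mut, 4 and 0 UMIs in WT). In endothelial cells flt1 stood at 265 and 202 CPM (UMIs of the gene per 1e6 UMIs) in flt1mut and at 295 and 173 CPM in WT, so its transcript level does not tell the labels apart.

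The cells carried the markers of their label. The pan-leukocyte phosphatase gene ptprc had a UMI in 83.9% of dividing blood cells (95% exact Clopper-Pearson interval 78.4 to 88.6%), against 66.7% of non-dividing blood cells and 1.61% of 991 endothelial cells, whose median depth was lower at 8843 UMIs. The endothelial receptor gene kdrl, whose promoter drives the reporter, had a UMI in 5.96% of the dividing cells (13 of 218) and in 86.5% of the endothelial cells. The gene that defines the blood criterion, coro1a, had a UMI in 3.43% of endothelial cells, which is the background of that criterion at their lower depth. The background at the depth of the dividing cells was not tested. Among markers of division, mki67, a protein of the mitotic chromosome surface, had a UMI in 99.5%, top2a in 94.5%, cenpf in 84.9% and rrm2 in 94.0% of dividing cells, against 31.4%, 1.05%, 1.73% and 10.7% of non-dividing blood cells. Of these only cenpf and rrm2 lie outside the rule. Intervals here and below cover counting error only.

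At the threshold, 33 members had exactly 6 of the 9 cell cycle genes and 27 blood cells just outside had 5, while 89 members had all 9. The blood criterion was met with 1 coro1a UMI in 16 members, with 2 in 18 and with at least 3 in 184. Another 230 cells met every other criterion but held 0 coro1a UMIs, at a median depth of 17016.5 UMIs. Of the members, 186 had none of the endothelial genes, 24 had 1 and 8 had 2, and only 3 cells missed the rule with 3. A further 65 cells were left out by the limit of 4500 genes alone, and 65 members lay just under it. Pooled over libraries, few members held markers of other cell types. At least 3 of 8 epithelial genes were found in 14 members (6.42%, against 4.20% of non-dividing blood cells) and at least 3 of 8 mesenchymal genes in 8 members (3.67%, against 0.375%). At least 3 of 8 further endothelial genes were found in 8 members (3.67%, against 0.225%), at least 3 neural genes in 2 members and at least 3 muscle genes in 0. Summed over the members, the epithelial genes came to 73.0 and 15.9 CPM in flt1mut, against 409 and 11.1 CPM in WT. The mesenchymal genes came to 10.3 and 2.12 CPM in flt1mut, against 60.2 and 1.59 CPM in WT. The further endothelial genes came to 7.99 and 7.44 CPM in flt1mut, against 57.8 and 15.1 CPM in WT. WT replicate 1 was thus the highest library for the epithelial, mesenchymal and further endothelial lists. The part of doublets and of free RNA in these values was not tested.

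To see which lineages the dividing cells belong to, each blood cell was given a class when at least 3 genes of one of 7 lineage lists had a UMI and that list led every other by at least 2 genes. Under this rule the largest class among dividing cells was lymphoid-like, with 69 of 218 (31.7%). Its list holds thymus homing receptors (ccr9a, ccr9b), T cell signalling genes (lck, zap70), recombinases (rag1, rag2) and gata3. Next came 21 myeloid progenitor-like cells (9.63%), called from spi1b, cebpa, cebpb and similar genes, and 18 progenitor-like cells (8.26%), called from myb, gata2b, runx1 and the drl genes. Granulocyte-like cells numbered 2, thrombocyte-like 1 and erythroid-like 1, and 0 were monocyte-macrophage-like, a class that had 3 blood cells in all. The remaining 106 had no class: 8 held fewer than 3 genes of every list, 43 had a tie and 55 had a lead of 1 gene. At least 3 genes of more than 1 lineage list were present in 137 members (62.8%, against 56.6% of non-dividing blood cells), most often of the progenitor and myeloid progenitor lists together (72 members) or of the lymphoid and myeloid progenitor lists together (71 members). Counted without the lead, 141 members held at least 3 myeloid progenitor genes, 129 at least 3 lymphoid genes and 86 at least 3 progenitor genes, and of the 106 without a class 80 held the myeloid progenitor, 54 the progenitor and 49 the lymphoid list. The cells with more than 1 list were deeper, with a median of 30810 UMIs against 25031 UMIs in the other members. The myeloid progenitor list also summed high in lymphoid-like members, but mostly through cebpb. That gene averaged 1572 CPM there, against a mean of 1691 CPM for the whole list. In the same cells csf1rb averaged 67.3 CPM and cebpa 14.8 CPM, and gfi1aa, spi1a and irf8 had no UMI. Summed, that list came to 1371 to 2130 CPM per library in lymphoid-like members and to 1663 to 2170 CPM in the members outside that class.

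The lymphoid-like cells had dividing members in every library. There were 34 and 12 lymphoid-like members in the flt1mut libraries, against 10 and 13 in the WT libraries, and the progenitor-like members numbered 8 and 4 in flt1mut, against 5 and 1 in WT. Dividing cells made up 17.4% of 397 lymphoid-like blood cells (95% interval 13.8 to 21.5%), 8.90% of 236 myeloid progenitor-like blood cells (5.59 to 13.3%) and 15.5% of 116 progenitor-like blood cells (9.46 to 23.4%).

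Over libraries the lymphoid-like share was 24.1% and 12.1% in flt1mut, against 33.3% and 10.2% in WT, a mean of 20.0% ± 10.8 (SD, n = 4). The myeloid progenitor-like share was 12.2% and 6.78% in flt1mut, against 7.14% and 8.20% in WT, a mean of 8.57% ± 2.47. The progenitor-like share was 32% and 11.4% in flt1mut, against 31.3% and 2.50% in WT, a mean of 19.3% ± 14.7. For the lymphoid-like and progenitor-like shares both replicate 1 libraries were above both replicate 2 libraries, whereas the myeloid progenitor-like share stayed between 6.78% and 12.2%.

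The lymphoid-like share exceeded the myeloid progenitor-like share by 11.4 percentage points (SD 10.7) and was higher in 4 of 4 libraries, with an exact two-sided sign-flip p = 0.125, which is the smallest that 4 libraries allow, and 0.375 after Benjamini-Hochberg adjustment over the 3 pairs of classes. The lymphoid-like minus progenitor-like difference was 0.66 points (SD 6.46, 3 of 4 libraries, exact p = 0.75). The myeloid progenitor-like minus progenitor-like difference was −10.7 points (SD 13.8, higher in 1 of 4 libraries, exact p = 0.375, adjusted 0.563). No order of the 3 classes thus passed a test. Because a deeper cell shows more of the 9 genes, every cell was also thinned to 5000 UMIs, and cells with fewer were left out. The lineage classes stayed those at own depth, so the thinning evened the cell cycle genes and not the class markers. It therefore cannot take depth out of the class assignment. The mean shares then fell to 9.64% for lymphoid-like, 1.79% for myeloid progenitor-like and 2.99% for progenitor-like cells. The lymphoid-like share was again above the myeloid progenitor-like share in 4 of 4 libraries (difference 7.85 points, exact sign-flip p = 0.125). The thinned myeloid progenitor-like share rested on 5 of 70 cells in flt1mut replicate 1. It was 0 of 58 cells in flt1mut replicate 2, and 0 of 41 and 0 of 61 cells in WT.

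**Figure D1:**
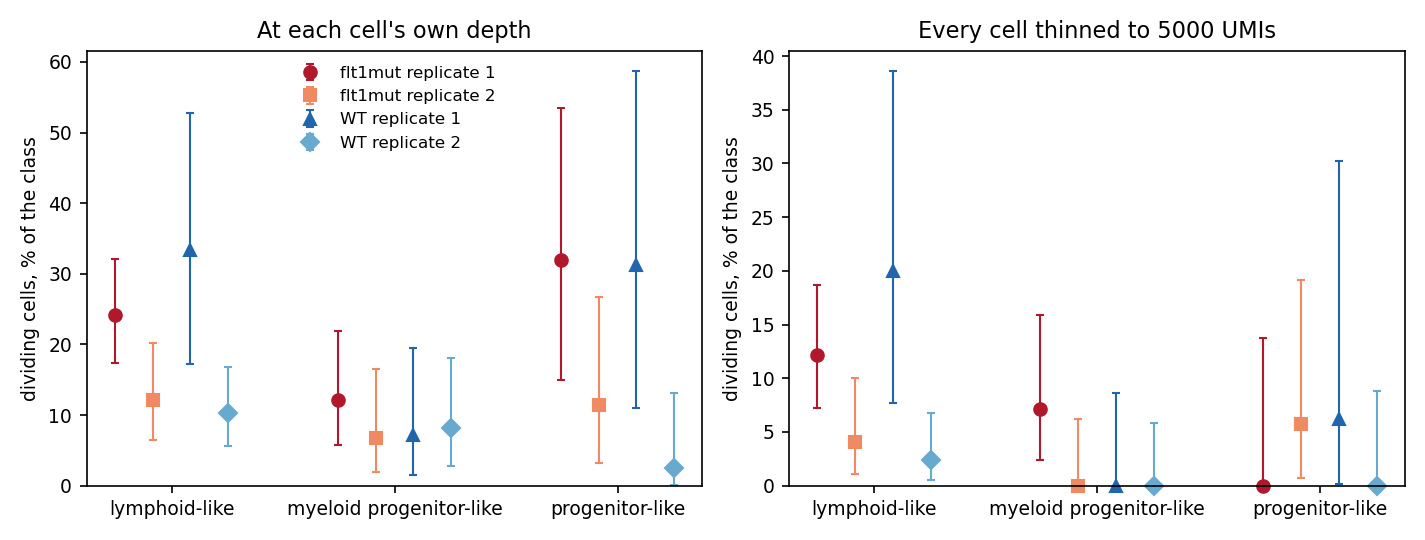
Dividing cells as a percentage of the blood cells of 3 lineage classes (y axis, scaled separately in each panel) at each cell's own depth (left) and thinned to 5000 UMIs (right). Cells with fewer than 5000 UMIs are left out on the right. Each point is a library, bars are 95% exact Clopper-Pearson intervals, and the lymphoid-like share is 12.1 to 24.1% in flt1mut and 10.2 to 33.3% in WT at own depth.

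The coro1a criterion sets which lineages can appear at all. Without it, 18 of 131 thrombocyte-like cells met the cell cycle criterion, 17 of them with no coro1a UMI, and so did 18 of 276 erythroid-like cells, again 17 of them with no coro1a UMI. For progenitor-like cells the count was 33 of 245, 15 of them without coro1a. Lymphoid-like cells were hardly touched (72 of 439, 3 without coro1a), as were myeloid progenitor-like cells (21 of 248, 0 without coro1a). Most of the cells gained had no class (283 of 2483, 177 without coro1a). The dividing cells described here are therefore cells with coro1a by construction, and dividing cells of the erythroid-like and thrombocyte-like classes lie largely outside them. Counted without the lead, 13 members held at least 3 erythroid genes and 13 at least 3 thrombocyte genes.

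The share of dividing cells among all blood cells was 16.0% and 8.06% in flt1mut (97 of 606 and 34 of 422 cells), against 17% and 8.87% in WT (44 of 259 and 43 of 485 cells). The genotypes overlap, and replicate 1 of each had about the same share. The flt1mut minus WT difference was −0.90 percentage points (means of 12.0% in flt1mut and 12.9% in WT, exact two-sided permutation p = 0.667, where 2 against 2 libraries cannot go below 0.333). With cells thinned to 5000 UMIs, and those with fewer left out, the share was 7.36% and 2.42% in flt1mut (42 of 571 and 10 of 414 cells). In WT it was 6.45% and 1.67% (16 of 248 and 8 of 479 cells). Both replicate 1 libraries thus stayed above both replicate 2 libraries after thinning. The cause of the gap between replicate numbers was not tested. The depth of the blood cells differed between libraries. Non-dividing blood cells had a median of 15883.5 and 20882 UMIs in flt1mut, against 28296 and 21785 UMIs in WT.

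What the cells transcribe beyond the 9 genes was described against non-dividing blood cells. As the rule used these same cells and a cell cycle readout, the contrast is given with no test. Of 6217 genes at 10 CPM or more in the mean of either group, 519 (8.35%) were at least 2-fold higher in dividing cells in 4 of 4 libraries and 58 (0.933%) at least 2-fold lower. Levels of a cell group are CPM of its UMIs summed per library, and fold differences are log2 ratios of the mean levels plus 1 CPM. The median over all genes was −0.01.

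The levels of the 9 rule genes follow as a description, since the rule itself sets them apart. The mki67 (ENSDARG00000091150) level was 1035 and 1148 CPM in flt1mut dividing cells and 857 and 1036 CPM in WT dividing cells, against 29.4 to 39.8 CPM in non-dividing cells of the 4 libraries. The topoisomerase gene top2a (ENSDARG00000024488), which untangles sister chromatids, was at 368 and 329 CPM in flt1mut and 304 and 232 CPM in WT dividing cells, and at most 0.975 CPM in non-dividing cells. Of the mitotic kinase genes, cdk1 was at 137 and 126 CPM in flt1mut and 177 and 112 CPM in WT, aurkb was at 179 and 134 CPM in flt1mut and 171 and 105 CPM in WT, and plk1 was at 193 and 143 CPM in flt1mut and 171 and 119 CPM in WT. The genotypes overlapped for each of these kinase genes, and WT replicate 2 was the lowest library. The cyclin B gene ccnb1 stood at 137 and 126 CPM in flt1mut, against 151 and 133 CPM in WT, and the spindle factor gene tpx2 at 279 and 253 CPM in flt1mut, against 255 and 181 CPM in WT. The chromosomal passenger genes cdca8 (94.0 and 73.3 CPM in flt1mut, 88.7 and 50.8 CPM in WT) and birc5a (103 and 79.7 CPM in flt1mut, 102 and 75.5 CPM in WT) complete the 9.

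Genes of mitosis outside the rule were higher almost without exception. All 13 kinetochore and checkpoint genes at the level limit were at least 2-fold higher in 4 of 4 libraries (median log2 4.93), as were all 15 genes of spindle motors and poles (median 5.13), 13 of 14 condensin and cohesin genes (median 3.91) and 12 of 13 genes of mitotic exit and cytokinesis (median 4.41). The microtubule bundling gene nusap1 (ENSDARG00000002403) may stand for them. Its level was 285 and 225 CPM in flt1mut and 203 and 206 CPM in WT dividing cells, a mean of 230 ± 38.0 CPM (SD, n = 4), against a mean of 0.709 CPM in non-dividing cells, a log2 ratio of 7.08. Every library showed the gap.

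Genes of DNA synthesis were divided. Nucleotide supply counted 8 of 12 higher (median log2 2.27), the replication fork 15 of 20 (median 1.69), and origin licensing with the helicase 7 of 13 (median 1.53). The sliding clamp gene pcna (ENSDARG00000054155) was at 560 and 1013 CPM in flt1mut and 590 and 1182 CPM in WT dividing cells, against 124 and 167 CPM in flt1mut and 235 and 191 CPM in WT non-dividing cells (log2 2.22). For pcna both replicate 2 libraries were above both replicate 1 libraries. The small subunit of ribonucleotide reductase, rrm2, has 2 gene models in the files: ENSDARG00000078069 was at 478 and 970 CPM in flt1mut and 294 and 959 CPM in WT dividing cells (log2 6.17), and ENSDARG00000020711 at 161 and 226 CPM in flt1mut and 391 and 419 CPM in WT dividing cells (log2 6.75). Reads shared by such copies may have been split between them. The histone mRNA binding protein gene slbp was at 139 and 207 CPM in flt1mut and 136 and 280 CPM in WT dividing cells (log2 3.73).

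The helicase genes themselves did not stand out against the non-dividing cells, which include 517 cells with 1 rule gene. The level of mcm2 (ENSDARG00000102798) was 37.3 and 40.4 CPM in flt1mut and 28.5 and 34.2 CPM in WT dividing cells, against 36.0 and 56.6 CPM in flt1mut and 61.4 and 76.6 CPM in WT non-dividing cells, a log2 ratio of −0.70. Ratios were −0.51 for mcm4, −0.50 for mcm6, −0.35 for mcm5, 0.57 for mcm3 and 0.64 for mcm7. Pooled over libraries, mcm2 was at 42.3 CPM in blood cells with 0 rule genes and at 77.9 CPM in those with 1. For mcm6 these levels were 33.1 and 68.1 CPM. The ratios thus depend on which cells are called non-dividing. Within the list of origin licensing and helicase genes some genes that fire origins were far higher, with log2 ratios of 4.67 for cdc45 and 4.24 for gins3. The loader gene cdc6 was also far higher, at 4.17. Others rose less. In dividing over non-dividing lymphoid-like cells the ratio was 3.88 for gins3, 1.60 for gins4, 1.52 for gins1 and 1.08 for the loader gene cdt1.

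Cyclin and inhibitor genes were counted by the same 2-fold rule. Of 10 genes for G1 and S cyclins, kinases and E2F factors, 6 were at least 2-fold higher in 4 of 4 libraries, led by the S and G2 cyclin gene ccna2 (118 and 141 CPM in flt1mut and 103 and 138 CPM in WT dividing cells, log2 6.09) and the repressor gene e2f8 (log2 6.0). The D-type cyclin genes, which act before S phase, stayed near the non-dividing level. The ccnd2a level was 34.6 and 18.1 CPM in flt1mut and 13 and 27.8 CPM in WT dividing cells, against 41.5 and 41.7 CPM in flt1mut and 19.0 and 42.2 CPM in WT non-dividing cells (log2 −0.61). The ratio was 0.30 for ccnd1 and −0.17 for their kinase gene cdk6. Of 8 cell cycle inhibitor genes 0 passed the 2-fold rule in either direction (median 0.18). All 16 ribosome biogenesis genes were below a ratio of 0 (median −0.42), and 0 of them were 2-fold lower.

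The lineage lists were counted by the same 2-fold rule. For the lymphoid list 0 of 8 and for the progenitor list 0 of 7 genes passed the 2-fold rule in either direction, with medians of 0.22 and 0.07. The thymus homing receptor gene ccr9a was at 896 and 839 CPM in flt1mut and 731 and 1006 CPM in WT dividing cells, against 901 and 719 CPM in flt1mut and 573 and 945 CPM in WT non-dividing cells. The progenitor factor gene myb had a log2 ratio of 0.06. In the myeloid progenitor list 3 of 8 genes were lower, spi1a, spi1b and cebpa. The level of spi1b (ENSDARG00000000767), which encodes the myeloid factor Pu.1, was 100 and 53.1 CPM in flt1mut and 26.0 and 66.7 CPM in WT dividing cells, against 249 and 202 CPM in flt1mut and 222 and 203 CPM in WT non-dividing cells (log2 −1.82), and cebpa had a ratio of −1.95. In the granulocyte list 2 of 7 genes were lower (mmp9 and abcb9) and in the monocyte-macrophage list 2 of 4 (ccl35.1 and ctss2.2). The cytokine receptor list (0 of 6) and the antigen presentation list (0 of 5) showed none in either direction, nor did the thrombocyte list (0 of 2), the erythroid list (0 of 3, median 1.84) and the embryonic globins (0 of 8, median 0.73). Of the globin UMIs of the dividing cells 69.0% lay in 1 erythroid-like cell of WT replicate 2.

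**Figure D2:**
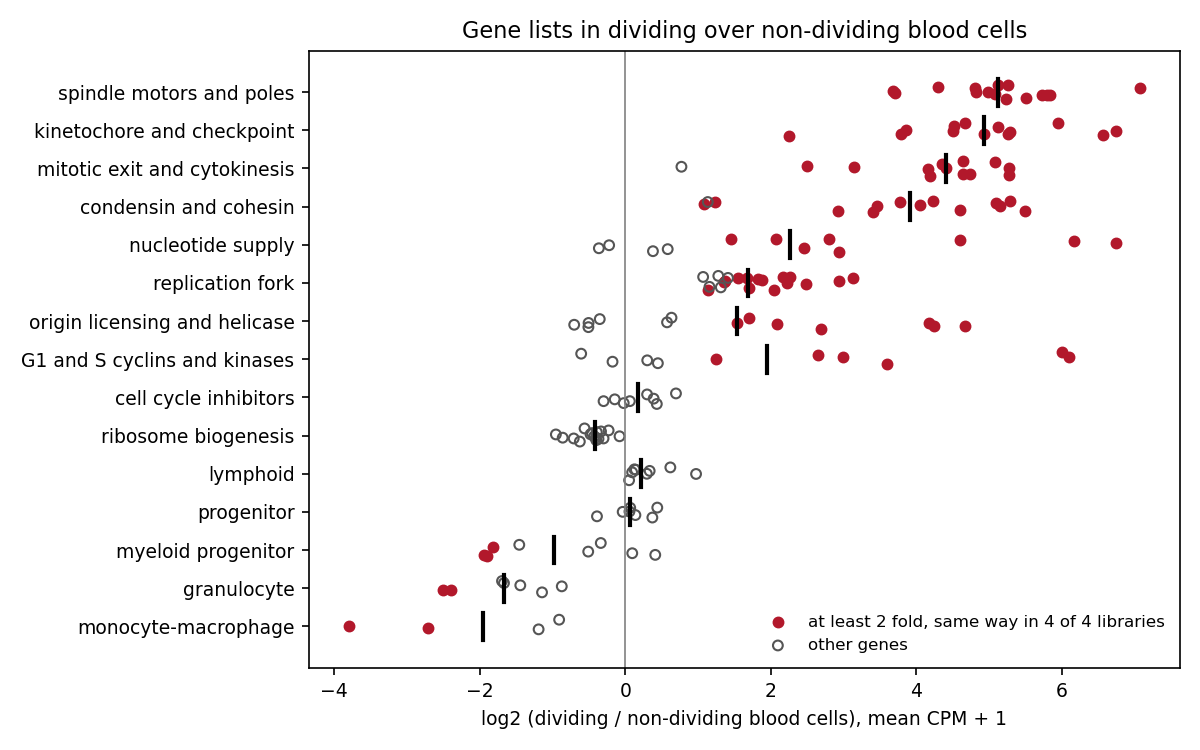
Log2 ratio of the mean level in dividing over non-dividing blood cells (x axis, mean CPM plus 1) for the genes of each list (y axis). Each point is a gene, filled where it was at least 2-fold different in the same direction in 4 of 4 libraries, and the black bar is the list's median, 5.13 for spindle motors and poles and −0.42 for ribosome biogenesis.

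A few genes outside the lists with large differences were picked after their values were seen. The histone H4 gene hist1h4l averaged 2840 CPM in dividing and 32.8 CPM in non-dividing cells (log2 6.39), and the histone H2A gene hist1h2a6 317 CPM in dividing and 0.447 CPM in non-dividing cells (log2 7.78). Near-identical histone copies share reads, so the split between copies is uncertain. The spindle pole gene aspm averaged 154 CPM in dividing and 1.67 CPM in non-dividing cells, and fbxo5, an inhibitor of the anaphase-promoting complex, 110 CPM in dividing and 0.359 CPM in non-dividing cells. On the lower side were the tubulin binding gene tppp (1.18 CPM in dividing and 66.2 CPM in non-dividing cells, log2 −4.94), the chemokine gene cxcl19 (−3.73), the collagenase gene mmp13a (−3.35), the cytokine gene il34 (−3.03) and the leukotriene receptor gene ltb4r (−2.31).

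The spread of the blood cells over the cycle was described next, pooled over the 4 libraries and with no test. A list of 20 S phase genes and a list of 20 G2 and mitosis (G2/M) genes, both free of the 9 rule genes, were summed per cell after thinning to 5000 UMIs. The median S list level was 2 UMIs per 10000 at 0 rule genes, 20 at 5, 22 at 6, 40 at 7, 24 at 8 and 10 at 9. The median G2/M list level was 0 at 0 rule genes, 8 at 5, 10 at 6, 12 at 7, 16 at 8 and 24 at 9. The G2/M level thus kept climbing with the number of rule genes, while the S level was highest at 7 and lower on either side. The S list exceeded the G2/M list in 79.5% of the 39 cells with 7 rule genes and in 23.6% of the 89 cells with 9, and these shares were 79.5% and 28.1% at own depth. The rule genes are themselves mostly genes of G2 and mitosis, so the rule orders cells in part by phase. The climb of the G2/M list with their number is thus set in part by the rule. The part of this ordering in the low helicase genes was not tested.

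Single genes followed suit. Of 21 gene rows in the G2/M list 18 were highest at 9 rule genes, among them nusap1 (375 CPM) and the anaphase activator gene cdc20, at 167.5 CPM with 9 and 32.6 CPM with 7 rule genes. In the S list 8 gene rows were highest at 7 rule genes, among them pcna (1317 CPM, against 426 CPM at 9) and slbp (292 CPM, against 102 CPM at 9), and 10 were highest at 3 to 5, that is, in cells that the rule left out. The mcm2 level was 42.3 CPM at 0 rule genes, 77.9 at 1, 130.5 at 3, 134 at 4, 63.2 at 6 and 21.7 at 9. The mcm6 level was 116.5 CPM with 3 and 12.0 CPM with 9. The 6 genes mcm2 to mcm7 were each highest at 3 to 5 rule genes. The highest helicase levels thus lay just below the threshold that admits a cell.

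**Figure D3:**
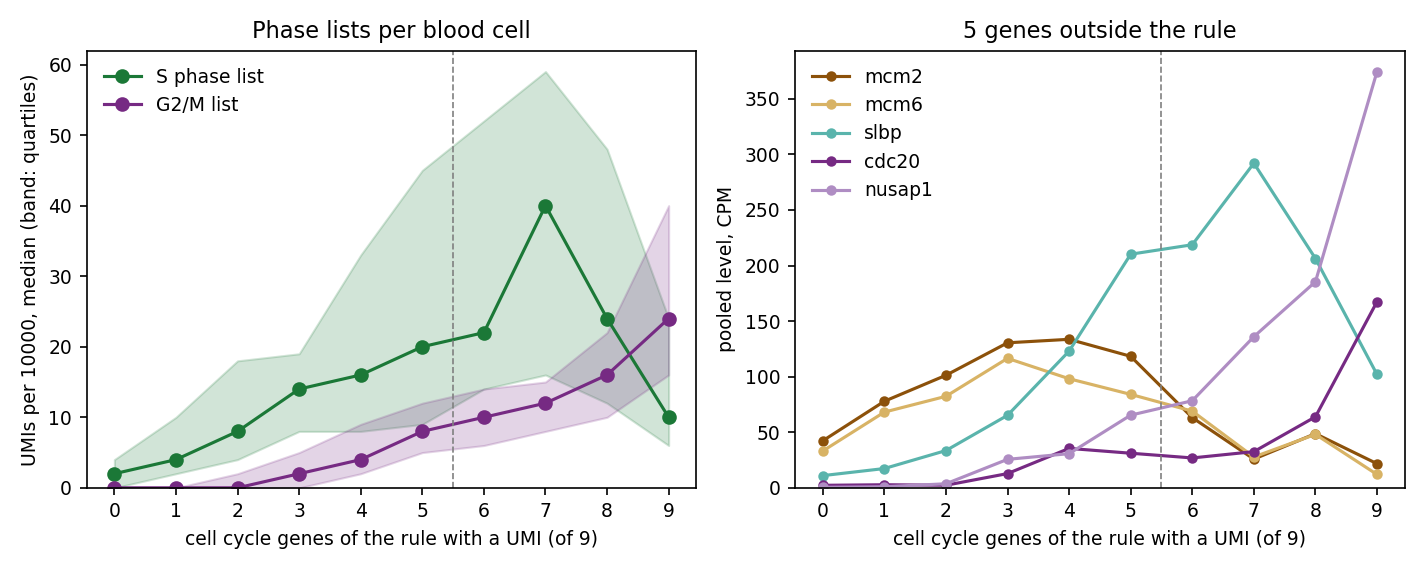
Levels of the S phase list and the G2/M list in blood cells (y axis, UMIs per 10000, cells thinned to 5000 UMIs) by the number of the 9 cell cycle genes with a UMI (x axis); the dashed line marks the threshold of 6. The median S level is 40 at 7 rule genes and 10 at 9, while the median G2/M level is 12 at 7 and 24 at 9.

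Over libraries, with cells thinned to 5000 UMIs, the S list averaged 21.2 and 32.4 UMIs per 10000 in flt1mut dividing cells, against 22 and 42.0 in WT dividing cells. Both replicate 1 libraries were low and both replicate 2 libraries high, and the mean was 29.4 ± 9.82 (SD, n = 4) in dividing cells and 5.20 ± 1.17 in non-dividing cells. The G2/M list averaged 23.8 and 20.5 in flt1mut, against 17.8 and 17.6 in WT, with a mean of 19.9 ± 2.89 in dividing and 0.606 in non-dividing cells. At least 10 S genes had a UMI in 114 of the 218 cells and at least 10 G2/M genes in 185.

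By genotype the S list differed by −5.22 UMIs per 10000 (means of 26.8 in flt1mut and 32 in WT, exact permutation p = 0.667). The G2/M list differed by 4.42 (22.1 in flt1mut and 17.7 in WT) with no overlap, which gives the smallest p that 2 against 2 libraries allow, an exact permutation p = 0.333. Neither passed a test, and the adjusted p was 0.667 for both over the 3 phase measures.

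Both lists were present in lymphoid-like dividing cells. Their S list averaged 32.6 UMIs per 10000, against 27.5 in the other dividing cells (difference 5.10, SD 7.66, higher in 3 of 4 libraries, exact sign-flip p = 0.375). Their G2/M list averaged 23.1, against 18.6 (difference 4.48, SD 4.81, higher in 3 of 4 libraries, exact sign-flip p = 0.25, adjusted 0.563 over the 3 measures). The exceptions were WT replicate 1 for the S list, at 17.8 in lymphoid-like and 23.2 in other dividing cells, and WT replicate 2 for the G2/M list, at 16.9 in lymphoid-like and 17.9 in other dividing cells.

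**Figure D4:**
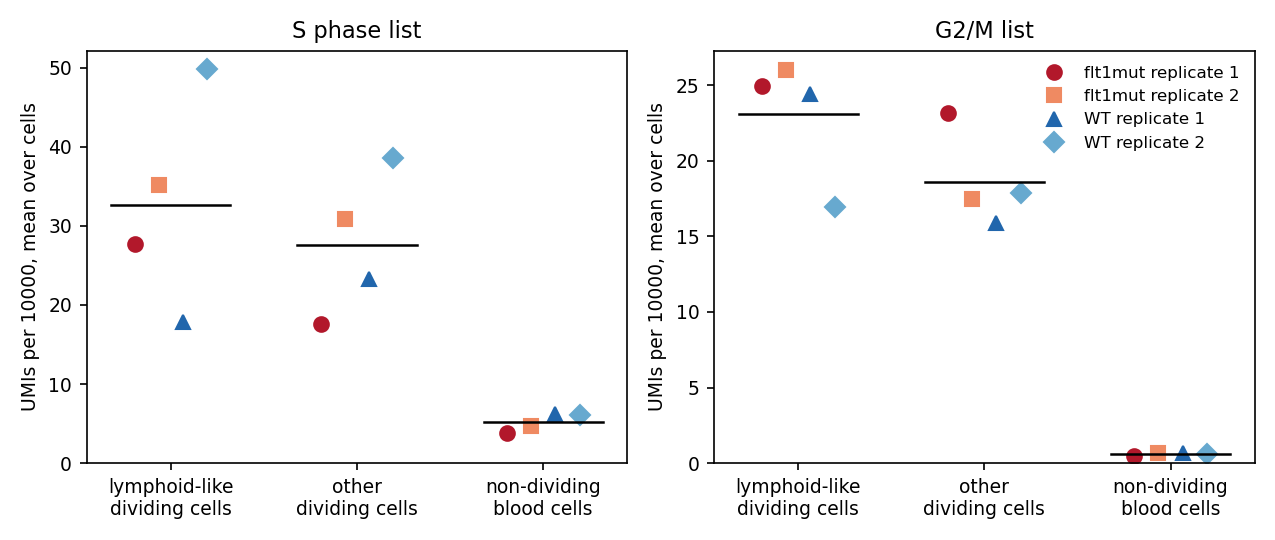
Mean level of the S phase list (left) and the G2/M list (right) per library (y axis, UMIs per 10000 after thinning to 5000 UMIs) in lymphoid-like dividing cells, other dividing cells and non-dividing blood cells (x axis). The horizontal line is the mean over 4 libraries, 32.6, 27.5 and 5.20 for the S list from left to right.

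The lymphoid-like class was large enough to ask how a dividing cell of that lineage differs from a non-dividing one. As before, the contrast carries no test. Of 6083 genes, 458 (7.53%) were at least 2-fold higher in lymphoid-like dividing cells in 4 of 4 libraries and 48 (0.789%) lower. Again all 13 kinetochore genes and all 15 spindle genes were higher, with 12 of 14 condensin and cohesin genes, 12 of 13 mitotic exit genes, 7 of 20 replication fork genes, 6 of 14 licensing genes, 6 of 12 nucleotide genes and 4 of 10 genes for G1 and S cyclins and kinases. Of 7 inhibitor genes 1 passed, the cyclin G gene ccng2 (137 CPM in dividing and 47.7 CPM in non-dividing lymphoid-like cells, log2 1.51). Of the 11 lymphoid genes 0 passed in either direction. The T cell factor gene gata3 (ENSDARG00000016526) was at 452 and 403 CPM in flt1mut and 322 and 539 CPM in WT dividing lymphoid-like cells, against 430 and 381 CPM in flt1mut and 109 and 371 CPM in WT non-dividing lymphoid-like cells. The recombinase gene rag1 (ENSDARG00000052122) was at 231 and 112 CPM in flt1mut and 8.06 and 43.6 CPM in WT dividing lymphoid-like cells, against 145 and 247 CPM in flt1mut and 61.4 and 134 CPM in WT non-dividing ones, and 23 of the 69 dividing cells held a UMI of it. Ribosome biogenesis genes had a median ratio of −0.91 with 0 of 16 past the 2-fold rule.

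The dividing cells were then compared among themselves. Only the lymphoid-like class had at least 5 cells in 3 or more libraries, so the comparison set lymphoid-like dividing cells against all other dividing cells of the same library, with the library as a block. The other dividing cells included the 106 without a class, of which 49 held at least 3 lymphoid genes. In WT replicate 1, 24 of the 34 other dividing cells remained once cells with at least 3 genes of a list of another cell type were removed. The genes of the rule and of the lineage lists, which defined the groups, were left out. A class needs a lead over the other lists, and the part of this requirement in the differences below was not tested. With edgeR's quasi-likelihood test and Benjamini-Hochberg adjustment, 92 of 5802 genes (1.59%) were higher and 114 (1.96%) lower in lymphoid-like dividing cells at an adjusted p of 0.05, of which 86 and 105 changed the same way in 4 of 4 libraries. The counts rest on 2 libraries in particular. Without WT replicate 1 they were 28 higher and 38 lower, and without flt1mut replicate 1 they were 33 higher and 37 lower.

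The adaptor gene lat (ENSDARG00000100334), which links the T cell receptor to its downstream enzymes, was at 79.9 and 176 CPM in flt1mut and 68.5 and 28.2 CPM in WT lymphoid-like dividing cells, against 9.5 and 28.6 CPM in flt1mut and 7.14 and 18.4 CPM in WT other dividing cells (log2 2.45, SE 0.37, adjusted p = 0.00361). It rose, with the smallest gap in WT replicate 2, and the groups overlapped. The call of lat was kept in 16 of 18 alternatives, with an adjusted p of up to 0.731 and a log2 change down to 0.89. Of its UMIs 20.7% lay in 1 cell of flt1mut replicate 2. The ATP-gated channel gene p2rx1 (ENSDARG00000016695) rose as well, at 359 and 620 CPM in flt1mut and 415 and 513 CPM in WT lymphoid-like cells, against 73.2 and 41.4 CPM in flt1mut and 116 and 151 CPM in WT other dividing cells (log2 2.37, SE 0.28, adjusted p = 0.00104). It had a UMI in 60 of 69 lymphoid-like and 67 of the other dividing cells, and the groups did not overlap.

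The kelch-type gene enc3 (ENSDARG00000058322) was at 46.5 and 28.8 CPM in flt1mut and 60.4 and 69.3 CPM in WT lymphoid-like cells, against 2.23 and 6.36 CPM in flt1mut and 8.16 and 10.4 CPM in WT other dividing cells (log2 3.08, SE 0.38, adjusted p = 0.0012). The gene id1 (ENSDARG00000040764), an inhibitor of helix-loop-helix factors, was at 77.5 and 67.2 CPM in flt1mut and 84.6 and 308 CPM in WT lymphoid-like cells, against 19.5 and 14.3 CPM in flt1mut and 35.7 and 28.8 CPM in WT other dividing cells (log2 2.28, SE 0.32, adjusted p = 0.00263). The carbonic anhydrase gene ca2 (ENSDARG00000014488) rested on few cells, 10 lymphoid-like and 2 others, at 22.7 and 3.2 CPM in flt1mut and 24.2 and 38.5 CPM in WT lymphoid-like cells, against 0 to 2.30 CPM in other dividing cells (log2 5.25, SE 0.82, adjusted p = 0.00505). The synaptotagmin gene syt10 (log2 3.34, adjusted p = 0.0409, kept in only 8 of 15 alternatives, with an adjusted p of up to 0.353) and 4 genes without a described name complete the 10 largest rises, si:dkey-63d15.12 (5.15), si:ch211-161n3.5 (4.89), si:ch73-343g19.4 (4.07) and si:ch211-196f2.6 (2.85). Without flt1mut replicate 1 the adjusted p was 0.0732 for ca2, 0.0505 for si:dkey-63d15.12, 0.0581 for si:ch211-161n3.5, 0.109 for syt10 and 0.0799 for si:ch211-196f2.6. It was 0.14 for syt10 without flt1mut replicate 2 and 0.055 for si:ch73-343g19.4 without WT replicate 1. The call of si:ch73-343g19.4 was kept in 14 of 16 alternatives, with an adjusted p of up to 0.685 and a log2 change down to 0.99.

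Among the 10 largest falls 5 genes had 0 UMIs in all 69 lymphoid-like cells. For these the difference is a lower bound, set against 3 UMIs over the 69 cells (1.68 CPM). The apelin ligand gene apln (ENSDARG00000053279) was at 44.7 and 17.5 CPM in flt1mut and 9.18 and 135 CPM in WT other dividing cells and was thus at least 30.3-fold lower in lymphoid-like cells (adjusted p = 0.00116). It had a UMI in 27 cells, and 52.5% of its UMIs lay in 1 cell of WT replicate 2. The bounds were 27.0-fold for si:ch211-250g4.3, 18.0-fold for the nucleotidase gene nt5c2l1, 7.54-fold for si:ch73-299h12.3 and 7.26-fold for the cholesterol hydroxylase gene ch25hl2. Only 9 cells held a UMI of ch25hl2, and 48.1% of its UMIs lay in 1 cell of flt1mut replicate 1. For nt5c2l1 28.7% of the UMIs lay in 1 cell of WT replicate 2. Without WT replicate 1 the adjusted p was 0.117 for si:ch73-299h12.3 and 0.0925 for ch25hl2.

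The ammonium channel gene rhag (ENSDARG00000019253), a partner of Rh proteins in the red cell membrane, was at 1.19 and 0 CPM in flt1mut and 4.03 and 0 CPM in WT lymphoid-like cells, against 95 and 58.9 CPM in flt1mut and 53.0 and 33.4 CPM in WT other dividing cells (log2 −5.71, SE 0.53, adjusted p = 0.000413). It had a UMI in 2 lymphoid-like and 24 other dividing cells. The erythroid list, which took part in assigning the classes, summed to 2.57 to 4.03 CPM over the lymphoid-like and 20.7 to 268 CPM over the other dividing libraries, and its part in these falls was not tested. The hematopoietic death receptor gene hdr (ENSDARG00000004392) was at 1.19 and 0 CPM in flt1mut and 0 and 0 CPM in WT lymphoid-like cells, against 67.6 and 49.3 CPM in flt1mut and 30.6 and 13.8 CPM in WT other dividing cells (log2 −6.04, SE 0.59, adjusted p = 0.000489). Every library of other dividing cells exceeded every library of lymphoid-like cells for both genes. The remaining falls were sult2st1 (a sulfotransferase, log2 −4.62, adjusted p = 0.00104), gapdh (log2 −4.62, adjusted p = 0.0222, kept in 8 of 13 alternatives, with an adjusted p of up to 0.126 and of 0.0542 without WT replicate 1) and zgc:158343 (log2 −4.88). In flt1mut replicate 1 a single cell held 61.0% of the UMIs of zgc:158343, and a single cell held 34.8% of those of sult2st1.

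**Figure D5:**
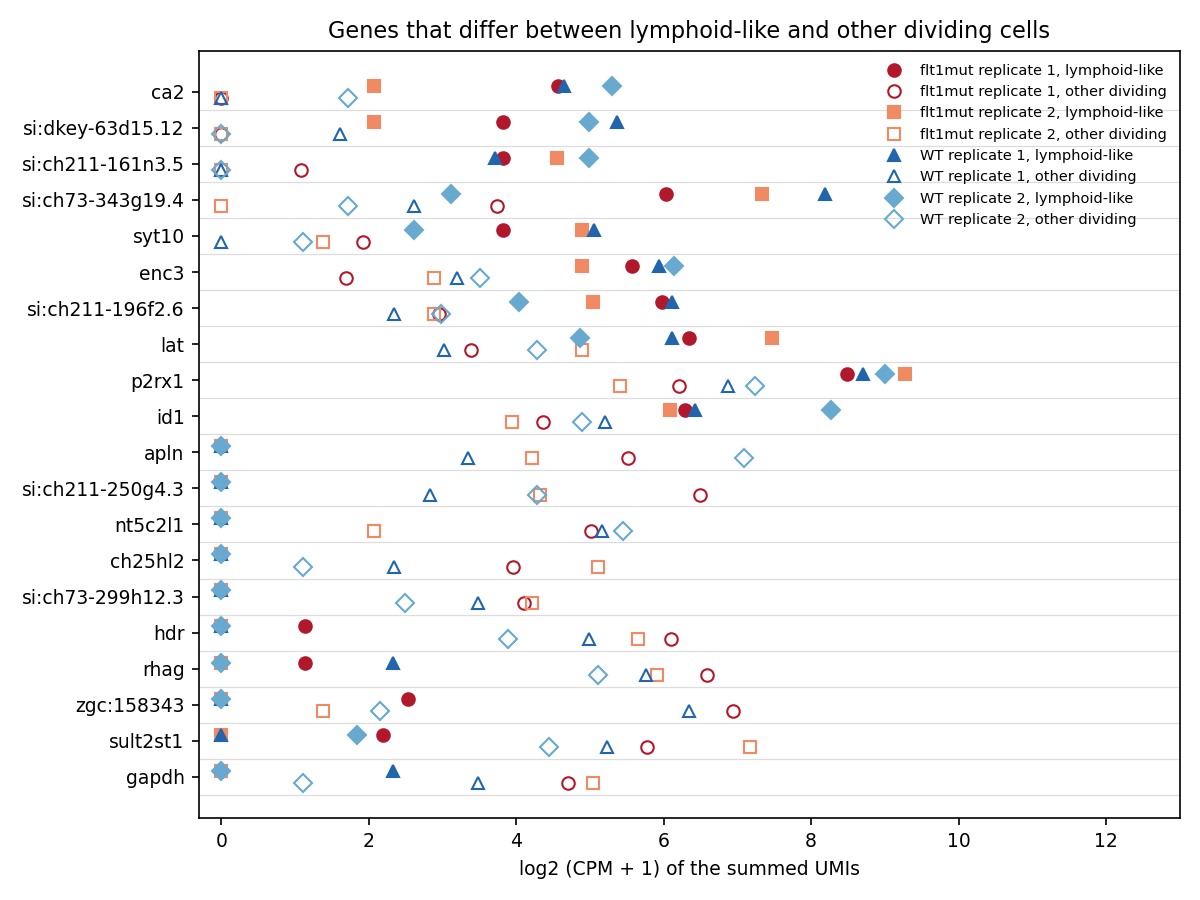
Level per library (x axis, log2 of CPM plus 1 of the summed UMIs) of the 10 genes with the largest rise and the 10 with the largest fall (y axis) in lymphoid-like dividing cells (filled) against other dividing cells (open). For p2rx1 the filled points lie at 359 to 620 CPM and the open points at 41.4 to 151 CPM, and apln is at 0 CPM in every lymphoid-like sum.

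Few cell cycle genes were called between lymphoid-like and other dividing cells. Of 10 genes for G1 and S cyclins and kinases 1 was called, the D-type cyclin gene ccnd2a (ENSDARG00000051748), at 77.5 and 41.6 CPM in flt1mut and 20.1 and 53.9 CPM in WT lymphoid-like cells, against 14.5 and 6.36 CPM in flt1mut and 11.2 and 16.1 CPM in WT other dividing cells (log2 2.01, adjusted p = 0.00664). All 10 genes of that list had a positive change (median 0.51, against −0.01 over all genes). Among lymphoid-like cells alone, ccnd2a averaged 48.3 CPM in dividing and 71.7 CPM in non-dividing cells (log2 −0.56, no test). The gene was thus not higher in those that divide. Of 14 condensin and cohesin genes 1 was called, the condensin gene smc4 (ENSDARG00000038882), at 355 and 400 CPM in flt1mut and 371 and 357 CPM in WT lymphoid-like cells, against 230 and 243 CPM in flt1mut and 168 and 244 CPM in WT other dividing cells (log2 0.75, adjusted p = 0.0186). Of 12 nucleotide supply gene rows 1 was called, the rrm2 model ENSDARG00000078069 (log2 0.74, adjusted p = 0.0137). For 15 spindle genes 0 were called, although 14 had a positive change (median 0.38), and 0 were called among 15 licensing, 20 replication fork, 13 kinetochore, 13 mitotic exit and 16 ribosome biogenesis genes (median −0.49 for ribosome biogenesis).

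Outside the cycle lists, cd74b (ENSDARG00000036628), the invariant chain of class II antigen presentation, was the 1 of 5 antigen presentation genes called, at 56.1 and 35.2 CPM in flt1mut and 60.4 and 64.1 CPM in WT lymphoid-like cells, against 30.7 and 4.77 CPM in flt1mut and 10.2 and 5.75 CPM in WT other dividing cells (log2 2.06, adjusted p = 0.016). Embryonic globins had 2 gene rows of 8 called as lower, hbae1.1 (log2 −1.64, adjusted p = 0.00263) and hbae1.3 ENSDARG00000088330 (log2 −1.82, adjusted p = 0.0177). All 8 had a negative change. The other dividing cells here include the erythroid-like cell of WT replicate 2, which held 69.0% of the globin UMIs of all dividing cells. A genotype difference in the lymphoid-like contrast was called for 0 of 5802 genes by edgeR's interaction term, with 176 genes at an unadjusted p under 0.05 and a smallest adjusted p of 0.0572.

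Finally the dividing cells of flt1mut embryos were compared with those of WT embryos. Of 6491 genes tested with edgeR, 1 (0.0154%) was higher and 2 (0.0308%) were lower in flt1mut, each at an adjusted p of 0.0459, and 408 genes had an unadjusted p under 0.05. The rise was in si:ch211-121a2.2 (ENSDARG00000039682), a gene without a described name, at 355 and 224 CPM in flt1mut dividing cells, against 8.95 and 16.7 CPM in WT dividing cells (log2 4.42, SE 0.39). It had a UMI in 96 of 97 and 22 of 34 flt1mut cells, against 6 of 44 and 11 of 43 WT cells. The same gap was present in non-dividing blood cells (369 and 283 CPM in flt1mut, against 11.2 and 15.2 CPM in WT). It was also present in the cells that failed the coro1a or endothelial criterion (251 and 149 CPM in flt1mut, against 9.34 and 15.6 CPM in WT). Those cells are not free of blood lineages. Only 7 of 276 erythroid-like and 8 of 131 thrombocyte-like cells held a coro1a UMI.

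No gene of the cell cycle or lineage lists was called. The falls were both in embryonic globin genes. The alpha globin gene hbae1.3 (ENSDARG00000088330) was at 77.2 and 86.0 CPM in flt1mut, against 400 and 663 CPM in WT (log2 −2.79, SE 0.28). The beta globin gene hbbe1.3 (ENSDARG00000087390) was at 33.5 and 11.7 CPM in flt1mut, against 405 and 464 CPM in WT (log2 −4.22, SE 0.42). A single erythroid-like member of WT replicate 2 held 69.0% of all globin UMIs of the dividing cells together with 45.3% of the UMIs of hbae1.3 and 49.4% of those of hbbe1.3, which only 2 of the 43 members of that library held at all. Without that cell the log2 change was −1.67 for hbae1.3 (adjusted p = 0.773), −3.15 for hbbe1.3 (adjusted p = 0.874) and 4.40 for si:ch211-121a2.2 (adjusted p = 0.0853), so both falls were smaller while the rise was nearly the same, and edgeR called 0 genes in either direction (402 at an unadjusted p under 0.05). Nearly all hbbe1.3 UMIs and most hbae1.3 UMIs of WT replicate 2 lay in that cell. Without it that library did not stand clearly above flt1mut for either gene, so the remaining falls rest on WT replicate 1. WT replicate 1, which does not hold that cell, was above both flt1mut libraries for both genes. In non-dividing blood cells hbbe1.3 had no genotype order, at 1015 and 22.1 CPM in flt1mut, against 111 and 2.18 CPM in WT. The part of free RNA from erythrocytes in the globin values was not tested.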

How the data were processed

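Live GFP+ cells of 4 pools of dissociated embryos were captured on the droplet platform of 10x Genomics with 3′ chemistry. The sample labels and the study's methods name different versions of the chemistry and different kdrl:EGFP lines. The deposited counts are whole UMIs per gene and called cell, which the authors made with Cell Ranger 6.1.1 on GRCz11 and did not normalize.

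The quality limits are those of the study's methods. No doublet caller was run. The dividing cells and the gene lists were chosen with earlier results of these data known, and ccnd2a, a cyclin, had been entered among the inhibitors by mistake and was taken out of that list after the values were seen. Gene names were taken from the files. Shares of cells were compared with exact sign-flip tests over libraries within a library and exact permutation tests between genotypes, both two-sided. UMIs were summed per library and group of at least 5 cells, filtered with filterByExpr, normalized with TMM and tested with the quasi-likelihood F-test of edgeR 4.0.16 (R 4.3.3), with Benjamini-Hochberg adjustment over all genes tested and a threshold of 0.05. DESeq2 1.42.0 was an alternative. Library was a block for lymphoid-like against other dividing cells, and genotype alone was the term for flt1mut against WT. Thinning, sums and figures used Python 3.11.15 with numpy 2.4.6, scipy 1.17.1, pandas 2.3.3 and matplotlib 3.10.9.

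The genes named are those of the rule, list genes past a test (with no test, those of a list with the largest and smallest differences) and, per edgeR comparison, the 10 with the largest change in each direction among genes past the threshold that changed the same way in every library. Of the list genes, 9 symbols were unmatched and not used here.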

Additional observations from a re-analysis of the deposited data

How the results depend on the processing

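The count of genes that differ by genotype in dividing cells was unstable: against 1 higher and 2 lower, leaving out 1 library in turn gave 5 to 37 higher and 26 to 78 lower (the lone library of a genotype then being assumed to vary like the others), DESeq2 gave 7 and 18, and testing every gene with a UMI gave 78 and 148. With at least 2 coro1a UMIs, with cells of up to 6000 genes, and, chosen after seeing the data, without cells that held several lineage lists or without the erythroid-like cell, edgeR called 0 higher and 0 lower, with 399, 409, 271 and 402 genes at an unadjusted p under 0.05; DESeq2 was not run on these. Cells with at least 5 cycle genes gave 6 lower, cells without markers of another cell type (chosen after seeing the data) gave 4 higher, and lymphoid-like cells alone gave 0 lower, with hbbe1.3 at a log2 change of 0.59. The libraries share only a replicate number (correlation of deviations 0.26, 2 pairs), and the replicate block gave 1 higher and 7 lower; 3 of 3 named genes kept their call under it.

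For lymphoid-like against other dividing cells (92 higher, 114 lower), leaving out 1 library gave 28 to 87 higher and 37 to 125 lower, DESeq2 61 and 52, and no replicate block 29 and 34. At least 7 cycle genes gave 52 and 61, no filter 288 lower, cells of up to 6000 genes 160 higher, leaving out the deepest 10% of cells 58 higher, a lead of 3 genes 57 higher, and leaving out cells with several lineage lists 15 and 20. Where an alternative tested them again, the 20 genes named kept direction, with 276 values past the threshold and 32 not; the filter left only 8 of the 20 with no replicate block, 6 without cells with several lineage lists and 14 without flt1mut replicate 1.

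The mean dividing share was 4.47% of blood cells thinned to 5000 UMIs and 1.77% at 3000. It was 4.35% for lymphoid-like cells at 3000, 1.79% and 0.347% for myeloid progenitor-like cells at 5000 and 3000 (5.97% with at least 7 cycle genes, 14.1% with up to 6000 genes), and 2.99% and 3.28% for progenitor-like cells. The flt1mut minus WT difference turned to 0.82 and 0.94 points at these depths. The lymphoid-like minus progenitor-like difference turned to −0.67 with at least 5 cycle genes, −0.48 with 7, −3.29 with 2 coro1a UMIs and −3.44 with up to 6000 genes. The lymphoid-like share was above the myeloid progenitor-like share in only 3 of 4 libraries at 3000 UMIs and with classes by at least 4 markers (exact sign-flip p = 0.25 for both). A 1.5-fold limit gave 183 genes lower in dividing than in non-dividing cells. The cause was not tested for any of these.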
